A study of Arabidopsis thaliana with 18 samples.

Results

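Salicylic acid in a surfactant was compared with the surfactant alone in Arabidopsis thaliana accession Est, on 6 of the 18 ATH1 microarrays of the series. The 3 SA arrays carried titles 49, 50 and 51 and received SA at 0.30 mM together with 0.02% silwet. The 3 silwet arrays carried titles 40, 41 and 42 and received 0.02% silwet with no SA, so both groups share the surfactant and the accession. Within each treatment the title numbers form 3 consecutive runs, each numbered Rep1 to Rep3, and these 6 arrays are the second run of SA and the second run of silwet. In each run Rep1 to Rep3 are called replicates 1 to 3 below, so SA 49 stands with silwet 40, SA 50 with silwet 41 and SA 51 with silwet 42.

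The labels give no tissue, plant age or harvest time. They do not say what separates the runs, which run of SA belongs with which run of silwet, or whether replicates came from separate plants, so the p-values measure the spread between these arrays, which may be technical. Levels are log2(signal + 16) of the authors' linear signal, so that a signal of 0 would read 4, and a difference is the mean of 3 paired differences, SA minus silwet. Because 16 is added before the logarithm, fold changes of dim probe sets are understated.

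Salicylic acid is a plant defence hormone that binds NPR proteins, which act with TGA transcription factors to switch on pathogenesis-related genes and systemic acquired resistance. It is known in Arabidopsis for its antagonism with the jasmonate and ethylene branch of defence, for which the plant defensin PDF1.2 is the usual marker. Silwet is an organosilicone surfactant that lets a spray spread over and enter the leaf.

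No probe set passed the test between the 3 SA and 3 silwet arrays. Of 17059 probe sets tested by limma with replicate number as a block, 0 were called higher and 0 lower at an adjusted p under 0.05 (0% of those tested), and the smallest adjusted p was 0.0859. At an unadjusted p under 0.05, 652 probe sets were higher (3.82%) and 482 lower (2.83%), together 1134 (6.65%), where 5% of those tested would be 853. The 3 SA arrays lay entirely above the 3 silwet arrays for 1183 probe sets (6.93%) and entirely below them for 724 (4.24%). The 95% interval of the difference had a median half-width of 0.44. On the log2 scale used here, 95.7% of the intervals lay within a 2-fold change in either direction. That scale understates fold changes of dim probe sets, so for those the intervals do not bound the change in signal. The intervals also treat arrays of the same replicate number as pairs, which they are not shown to be. The median difference over all probe sets tested was 0.04.

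The arrays were alike in brightness, with trimmed means of 100.009 to 100.01 and median signals of 27.4 to 35.2. Leaf mesophyll markers were bright on all 6 arrays: RCA, the Rubisco activase, had levels of 11.54 to 11.68 in SA and 11.26 to 11.84 in silwet, and PRK, a Calvin cycle kinase, had levels of 10.94 to 11.28 in SA and 10.92 to 11.09 in silwet. The root expansin EXPA18 stayed at 4.43 to 4.75 in SA and 4.54 to 4.81 in silwet, close to the floor of the scale. The guard cell marker GC1 was at 7.19, 7.97 and 7.83 in SA and 6.46, 8.14 and 7.92 in silwet, lowest on silwet 40. The other guard cell marker tested, FAMA, was at 5.72, 5.84 and 5.61 in SA and 5.6, 5.72 and 5.65 in silwet, so it was not low on silwet 40 in the same way. The part of GC1 in the results was not tested. The 3′ to 5′ log2 ratios of the actin control were 2.36, 1.23 and 2.6 in SA and 1.96, 1.88 and 1.65 in silwet. Those of GAPDH overlapped between the groups too. The ubiquitin ratios of 1.61, 1.94 and 1.55 in SA and 2.1, 2.08 and 1.66 in silwet also overlapped, but were lower in SA in all 3 pairs (mean −0.25, SD 0.21). An exact two-sided permutation test of the 3 paired differences gave p = 0.75 for GAPDH, 0.75 for actin and 0.25 for ubiquitin, where 0.25 is the smallest p that 3 pairs allow (adjusted p = 0.75 for each).

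The largest differences were in the plant defensins, small secreted antimicrobial peptides. PDF1.2 (AT5G44420) had levels of 7.04, 5.84 and 7.73 in SA replicates 1, 2 and 3, against 10.31, 11.29 and 9.11 in silwet replicates 1, 2 and 3. All 3 SA arrays were below all 3 silwet arrays, and the group means were 6.87 ± 0.96 in SA and 10.24 ± 1.09 in silwet (SD, n = 3 each). The paired difference was −3.37 ± 0.50 (SE), or 10.3-fold lower in SA, with a 95% interval of −4.44 to −2.30 and an adjusted p of 0.0859 by limma. In bulk RNA, fewer cells that make a transcript and less of it per cell cannot be told apart.

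PDF1.2b (AT2G26020) is a near-identical defensin gene. Its levels were 8.86, 6.99 and 8.79 in SA and 10.74, 11.03 and 10.11 in silwet, and the groups did not overlap. The difference was −2.42 ± 0.36, or 5.34-fold lower in SA, with a 95% interval of −3.20 to −1.63 and the same adjusted p of 0.0859. Its probe set is of the type that can hybridise with related sequences, so part of its signal may come from PDF1.2 or other copies, and the pair should not be read as independent. In both genes the replicate 2 pair differed most (−5.45 for PDF1.2 and −4.04 for PDF1.2b) and the replicate 3 pair least (−1.38 and −1.33). PDF1.2 was called lower in 7 of 12 alternative settings, over which its difference ran from −4.36 to −2.33. PDF1.2b was called lower in 6 of 12, from −2.96 to −1.61. The 2-fold limit, counted among the 12, can only remove calls from the main fit, so it could call neither gene. Both were called lower without replicate 1, the pair that holds silwet 40, but that fit rests on 2 pairs. With silwet 40 alone left out, a setting outside the 12 and fitted without the replicate block, neither was called. Without the block, neither was called with silwet 40 kept either.

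**Figure D1:**
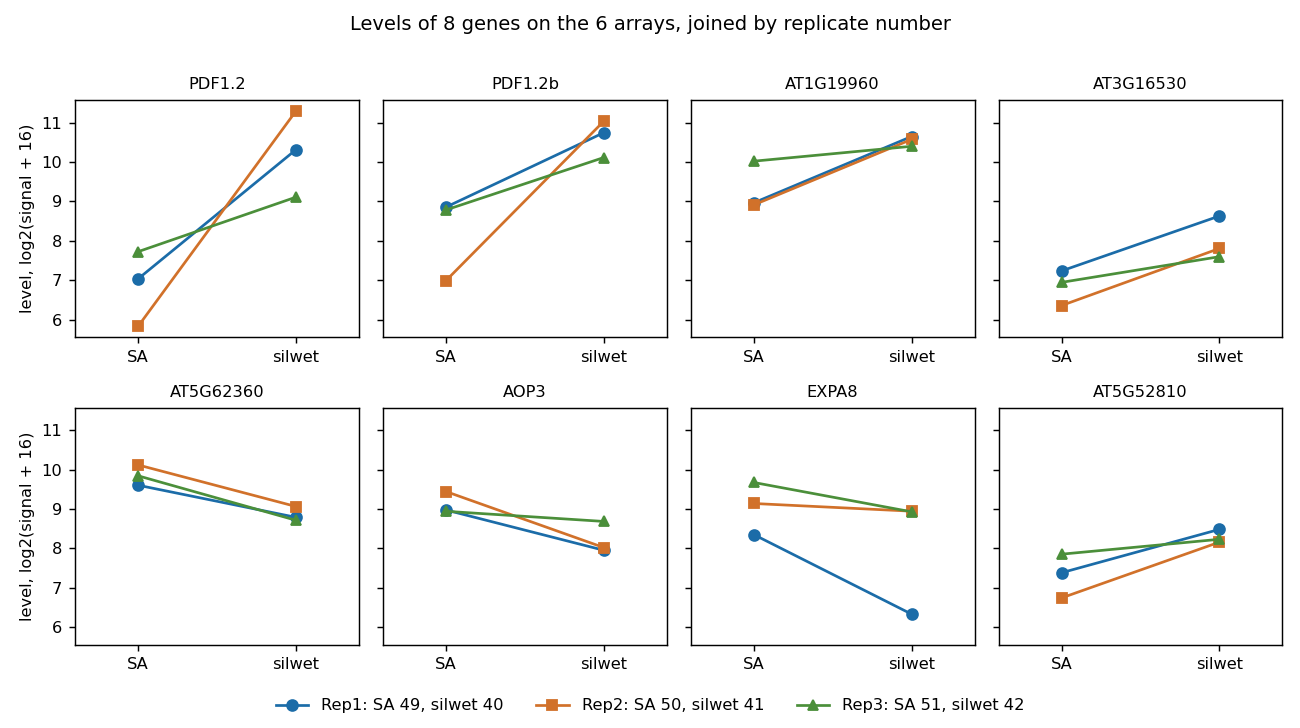
Level, log2(signal + 16), of 8 genes in SA (left) and silwet (right), with 1 point for each of the 6 arrays and a line joining the arrays of 1 replicate number. PDF1.2 lies at 5.84 to 7.73 in SA and 9.11 to 11.29 in silwet, while EXPA8 has its low silwet point on replicate 1 alone, at 6.34.

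The thionins, another family of small antimicrobial peptides, and the jasmonate gene JMT had smaller differences. THI2.2 (AT5G36910) had levels of 7.71, 7.85 and 7.58 in SA and 9.33, 8.06 and 8.02 in silwet. The SA arrays were all below the silwet arrays, with silwet 40 well above the other silwet arrays, and the difference of −0.76 ± 0.26 (adjusted p = 0.626 by limma) was −0.32 without replicate 1. THI2.1 (AT1G72260), a jasmonate-inducible thionin, overlapped between groups at 5.12, 4.75 and 4.60 in SA and 6.34, 5.28 and 4.31 in silwet. JMT (AT1G19640), which makes methyl jasmonate, was at 4.59 to 5.51 in SA and 4.11 to 5.28 in silwet, with a difference of 0.24. The jasmonate and ethylene list held PDF1.2, PDF1.2b, THI2.1 and JMT; 0 of the 4 were called, and 2 had an unadjusted p under 0.05, both lower. The defensin and thionin list held PDF1.2, PDF1.2b, THI2.1 and THI2.2, of which 3 of 4 were lower at that level. Over all probe sets tested, 2.83% were lower at that level. The lists share PDF1.2, PDF1.2b and THI2.1, so their counts and medians are not separate results. Their median differences of −1.45 and −1.59 stand beside 0.04 for all probe sets tested.

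The genes of SA synthesis and signalling had no common direction. Of 35 loci listed, 5 were tested by name, 0 were called, 2 were higher and 3 lower, and the median difference was −0.24. PR1, PR2, PR5 and ICS1 were not analysed by name here. AT5G52810, known in Arabidopsis as SARD4 and needed to make the defence signal pipecolic acid, had levels of 7.39, 6.75 and 7.86 in SA and 8.48, 8.16 and 8.23 in silwet. Every SA array was below every silwet array, by a mean difference of −0.96 ± 0.24 (adjusted p = 0.384 by limma). GRX480 (AT1G28480), an SA-inducible glutaredoxin that binds TGA factors, had levels of 7.15, 7.15 and 7.73 in SA and 7.97, 7.94 and 7.61 in silwet. Its replicate 3 pair went the other way, the groups overlapped, and the difference was −0.50 ± 0.24.

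UGT76B1 (AT3G11340), which glucosylates SA and isoleucic acid, had levels of 6.63, 7.06 and 7.70 in SA and 7.43, 5.32 and 6.68 in silwet. Silwet 41 was the lowest array and silwet 40 lay within the SA range, so the groups overlapped. The difference of 0.65 ± 0.36 (adjusted p = 0.806 by limma) was 0.11 without replicate 2 and 1.38 without replicate 1, and the gene was called higher without replicate 1, from 2 pairs. BSMT1 (AT3G11480), a methyltransferase that makes methyl salicylate, differed by 0.18, and SAG101 (AT5G14930), a partner of EDS1 in defence, by −0.24.

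Among the 12 genes named as highest in SA, the largest positive differences belonged to AT1G62500 (1.34), AT2G28790 (1.10) and AT5G62360 (0.997). The annotation table names most of the 12 largest by locus alone, and the family names given for such loci are background knowledge. The 12 places were filled by size among probe sets with 1 gene, an unadjusted p under 0.05, the same sign in all 3 pairs and a mean level of at least 7, since none passed the adjusted test. In 8 of these 12 the groups did not overlap, beside 6.93% of all probe sets tested with SA entirely higher, and their adjusted p-values ran from 0.222 to 0.602. The 12 were chosen for their size, so these counts describe them and test nothing.

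AT5G62360, of the pectin methylesterase inhibitor family, was the steadiest of them. Its levels were 9.60, 10.12 and 9.84 in SA and 8.79, 9.06 and 8.71 in silwet. All 3 SA arrays lay above all 3 silwet arrays, and the pairs differed by 0.81, 1.05 and 1.13. The mean difference of 0.997 ± 0.179 was 1.997-fold higher in SA (adjusted p = 0.222 by limma), and the gene was called higher without replicate 1 and with the spread estimated from 18 arrays.

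AT2G34510, a cell wall protein of the DUF642 family, had levels of 7.60, 8.03 and 7.63 in SA and 6.28, 6.99 and 7.22 in silwet, a difference of 0.92 without overlap. IQD21, listed as iqd21 (AT3G49260) and of a calmodulin-binding family, had levels of 7.22, 7.48 and 7.53 in SA and 6.16, 6.65 and 6.98 in silwet, a difference of 0.81 without overlap. AT1G55360 was at 8.10 to 8.89 in SA and 7.31 to 7.83 in silwet, and the acid phosphatase family gene AT1G04040 at 8.16 to 8.26 in SA and 6.86 to 7.83 in silwet. In all 4 of these genes the silwet 40 array was the lowest of the silwet arrays.

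For 6 of the 12 the size rested on replicate 1. EXPA8 (AT2G40610), an expansin that loosens cell walls, had levels of 8.35, 9.14 and 9.67 in SA and 6.34, 8.95 and 8.93 in silwet. Silwet 40 stood far below the other 5 arrays and the groups overlapped, so that the difference of 0.98 was 0.47 without replicate 1. AT1G62500, of the lipid transfer and 2S albumin family, had levels of 8.35, 8.04 and 7.76 in SA and 5.44, 7.46 and 7.23 in silwet. Its difference of 1.34, the largest of the 12, was 0.56 without replicate 1. AT2G28790, a thaumatin-like protein, had levels of 9.46, 9.34 and 9.16 in SA and 7.04, 8.98 and 8.66 in silwet, with a difference of 1.10 that was 0.43 without replicate 1. The other three were AT5G44020, an acid phosphatase family gene (0.86, and 0.36 without replicate 1), AT5G45650, a subtilase (0.85 and 0.48), and AT1G67750, a pectate lyase family gene (0.84 and 0.44). Silwet 40 was the lowest silwet array in 11 of the 12 genes, beside 5564 of the 16838 probe sets in the same count. Of the 641 of these that were higher in SA at an unadjusted p under 0.05, it was lowest in 348. Choosing large positive differences itself favours a low silwet array. The median difference of the 12 genes was 0.88 with replicate 1 and 0.57 without it.

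**Figure D2:**
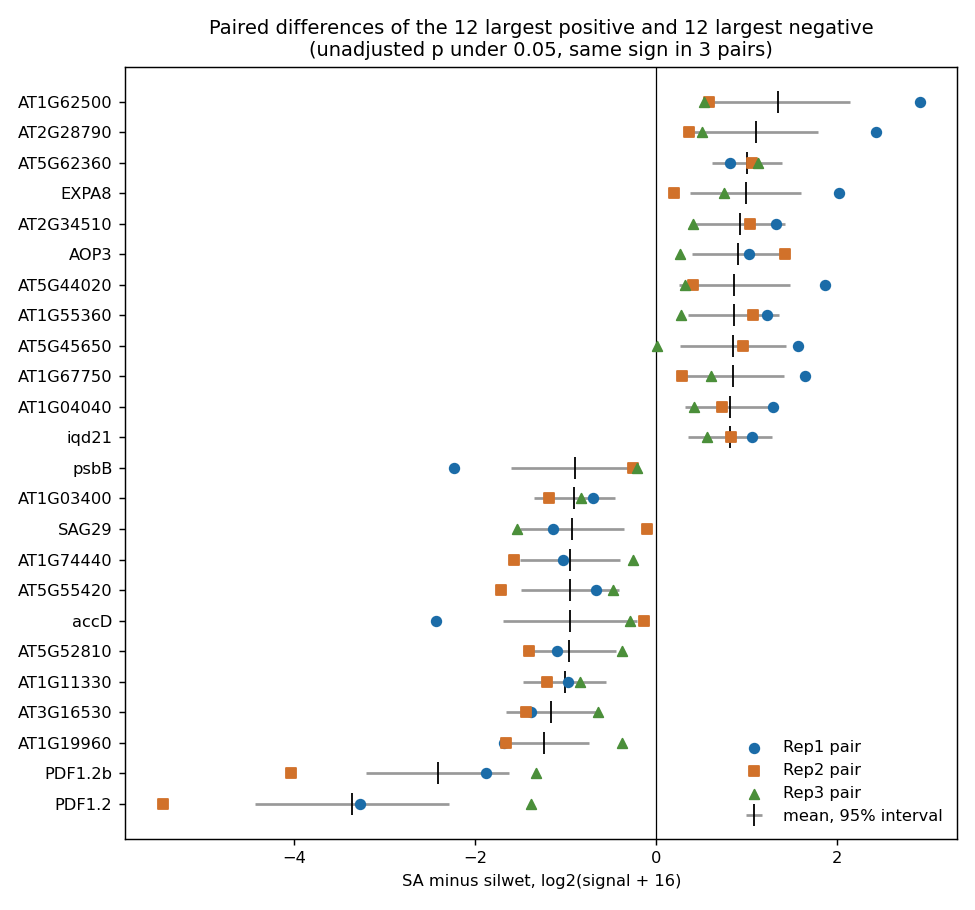
Paired differences, SA minus silwet in log2(signal + 16), of the 12 largest positive and 12 largest negative genes, with 1 marker per replicate pair, a black bar at the mean and a grey line for the 95% interval. The replicate 1 pair stands far to the right in AT1G62500 (2.91) and far to the left in accD (−2.44), while in PDF1.2 the replicate 2 pair is the lowest (−5.45).

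After the defensins, the largest negative differences among the 12 named in that direction were those of AT1G19960, AT3G16530 and AT1G11330. In 9 of the 12 the groups did not overlap, beside 4.24% of all probe sets tested with SA entirely lower, and adjusted p-values ran from 0.0859 to 0.632. These 12 were chosen by the same rule as the positive ones, so the counts describe them and test nothing. AT1G19960 had levels of 8.97, 8.91 and 10.02 in SA and 10.65, 10.57 and 10.40 in silwet. The SA arrays were below the silwet arrays, SA 51 by little, and the difference was −1.24 ± 0.23 (adjusted p = 0.222 by limma). AT3G16530, of the legume lectin family, had levels of 7.24, 6.36 and 6.95 in SA and 8.63, 7.81 and 7.60 in silwet, a difference of −1.16 ± 0.23 with no overlap. AT1G11330, of the S-locus lectin receptor kinase family, had levels of 6.46, 6.24 and 6.95 in SA and 7.44, 7.45 and 7.79 in silwet, a difference of −1.01 ± 0.21 with no overlap.

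SAG29 (AT5G13170), the senescence-associated sugar transporter also known as SWEET15, had levels of 6.16, 6.87 and 6.93 in SA and 7.31, 6.97 and 8.48 in silwet. The groups were separate by a narrow margin, since the replicate 2 pair differed by only −0.10, and the mean difference was −0.93. AT1G03400, of the 2-oxoglutarate-dependent oxygenase family, had levels of 7.66, 7.67 and 8.05 in SA and 8.36, 8.86 and 8.88 in silwet, a difference of −0.91 with no overlap. AT1G74440 differed by −0.95 with no overlap, and AT5G55420, annotated as a transcribed pseudogene, by −0.96 with overlap, and by −0.57 without replicate 2. Outside the rule on level, and chosen after its values were seen, the chitinase family gene AT2G43590 had levels of 5.23, 4.57 and 5.10 in SA and 7.31, 8.38 and 5.85 in silwet. Its groups did not overlap, and the difference was −2.21 (adjusted p = 0.222 by limma), in an order over the 3 pairs like that of PDF1.2: pair 2 lowest at −3.81 and pair 3 least at −0.74.

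Genes of the chloroplast genome were lower in SA in the replicate 1 pair. Of 69 chloroplast probe sets tested, 55 were lower and 14 higher, beside 7320 of 17059 lower for all probe sets, and 0 were called. At an unadjusted p under 0.05, 8 were lower and 1 higher, beside 2.83% lower and 3.82% higher for all. The summed signal below shifts by array, so the 69 are not separate observations. Their median difference was −0.20, made up of −0.68 in the replicate 1 pair, 0.05 in the replicate 2 pair and −0.08 in the replicate 3 pair. The summed signal of the 69 was 44559, 66292 and 47228 in SA and 65213, 64002 and 47086 in silwet. SA 49 and both arrays of replicate 3 were low and the other 3 arrays high, so the groups overlapped.

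Among them psbA, for the D1 protein of photosystem II, had levels of 8.49, 10.72 and 6.22 in SA and 10.75, 10.43 and 8.19 in silwet, a difference of −1.31 that was −0.84 without replicate 1. The gene accD, for a subunit of plastid acetyl-CoA carboxylase, had levels of 7.77, 10.06 and 7.17 in SA and 10.20, 10.21 and 7.46 in silwet. The gene psbB, for a core antenna protein of photosystem II, had levels of 6.97, 9.16 and 7.20 in SA and 9.21, 9.42 and 7.41 in silwet. Both accD and psbB overlapped between groups, and their differences of −0.96 and −0.90 were −0.22 and −0.23 without replicate 1. The nuclear photosynthesis genes had 7 of 11 lower, 0 called and a median of −0.15. LHCB4.2 (AT3G08940), an antenna protein of photosystem II, was at 10.23, 10.64 and 10.64 in SA and 10.55, 10.96 and 10.89 in silwet, a difference of −0.30.

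Cold and dehydration genes set silwet 40 apart. The summed signal of COR15A, COR15B, COR47 and LTI30, genes of cold acclimation and dehydration, was 6756, 4299 and 3554 in SA and 10014, 4283 and 3131 in silwet. Both replicate 1 arrays were above the other 4, silwet 40 most. LTI30 (AT3G50970), a dehydrin, had levels of 10.02, 8.18 and 8.47 in SA and 11.28, 9.33 and 8.60 in silwet, with a difference of −0.84 ± 0.22 and overlapping groups. COR15A, COR15B and COR47 differed by −0.11, 0.14 (0.26 without replicate 1) and 0.01. Thus 1 of the 4 was lower at an unadjusted p under 0.05, beside 2.83% of all probe sets tested. The part of this state in the results was not tested. On the negative side the 12 largest differences had a median of −0.96 with replicate 1 and −1.01 without it.

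**Figure D3:**
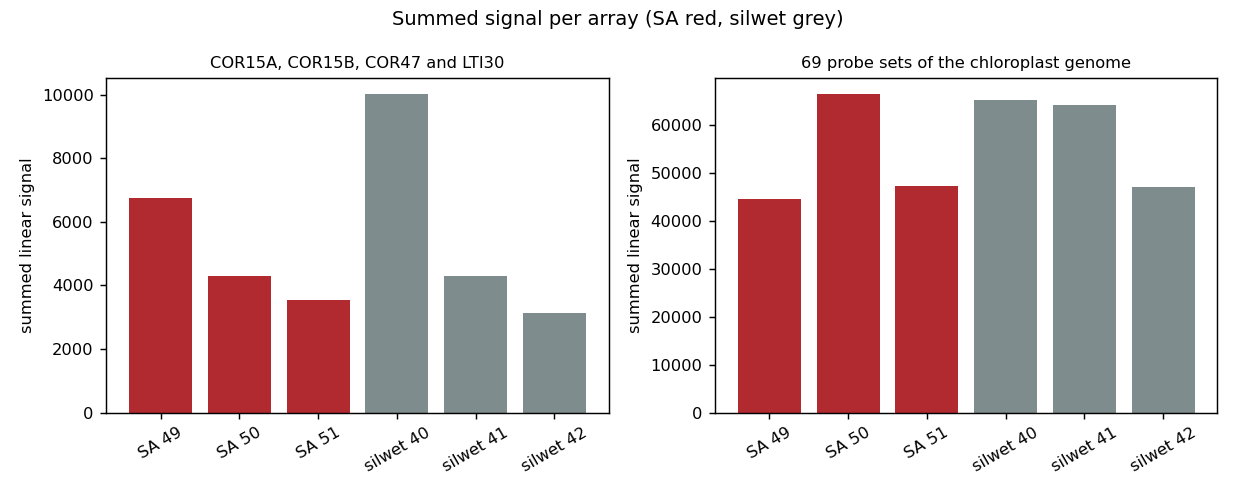
Summed linear signal on each of the 6 arrays, SA in red on the left and silwet in grey on the right, for 4 cold and dehydration genes (left panel) and 69 chloroplast probe sets (right panel). Silwet 40 is the highest array in the left panel at 10014, and SA 49 is the lowest in the right panel at 44559.

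The 3 pairs did not carry the same weight. Of the probe sets tested, 1.4% were at least 2-fold higher in SA and 1.28% at least 2-fold lower in the replicate 1 pair, 1.95% and 0.674% in the replicate 2 pair, and 0.281% and 0.41% in the replicate 3 pair. Averaged over the pairs, 14 probe sets differed by at least 2-fold upward and 28 downward. A probe set with no gene name here shared the smallest adjusted p with the defensins, at 9.31, 9.82 and 9.97 in SA and 7.03, 8.28 and 8.83 in silwet, a difference of 1.66 with no overlap. The same sign in all 3 pairs was found for 4402 probe sets (25.8%).

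Genes of protein folding in the endoplasmic reticulum, through which secreted proteins pass, were lower in SA for 8 of 9 tested members, beside 7320 of 17059 for all probe sets. Of the 9, 0 were called and 2 were lower at an unadjusted p under 0.05, beside 2.83% of all probe sets tested. Their median difference was −0.27, with pair medians of −0.07, −0.29 and −0.42. ATERDJ3B (AT3G62600), a co-chaperone of BiP, had levels of 8.75, 8.77 and 9.26 in SA and 9.58, 9.46 and 9.86 in silwet. Its groups did not overlap and the difference was −0.70 ± 0.18 (adjusted p = 0.400 by limma). BZIP60 (AT1G42990), a transcription factor of the unfolded protein response, had levels of 8.49, 8.14 and 9.001 in SA and 9.04, 8.89 and 9.18 in silwet, with SA 51 inside the silwet range and a difference of −0.50. The calreticulin gene CRT1b (AT1G09210) was at 9.52, 9.78 and 9.91 in SA and 9.48, 10.02 and 10.69 in silwet, a difference of −0.32.

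The glucosinolate genes, which make sulphur-rich defence compounds, had mean differences above 0 for all 5 tested members, beside 9739 of 17059 for all probe sets. Of the 5, 0 were called and 2 were higher at an unadjusted p under 0.05, beside 3.82% of all probe sets tested. Their median was 0.36, with pair medians of 0.57, 0.78 and −0.11, and AT2G31790, BCAT4 and UGT74B1 were lower in SA in the replicate 3 pair. AOP3 (AT4G03050), which modifies glucosinolate side chains, had levels of 8.98, 9.44 and 8.94 in SA and 7.95, 8.02 and 8.69 in silwet. All SA arrays were above all silwet arrays, and the difference was 0.90 ± 0.23 (adjusted p = 0.430 by limma). AT2G31790, a glucosyltransferase known as UGT74C1, had levels of 7.61, 8.38 and 7.21 in SA and 6.91, 7.11 and 7.37 in silwet, a difference of 0.61 with overlap at replicate 3, and 0.27 without replicate 2. BCAT4 (AT3G19710), the first enzyme of methionine chain elongation, differed by 0.36, AOP1 (AT4G03070) by 0.30 and UGT74B1 (AT1G24100), which glucosylates thiohydroximates, by 0.19.

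Other defence lists had values on both sides. Of 6 WRKY transcription factors 0 had an unadjusted p under 0.05; WRKY53 (AT4G23810), a regulator of leaf senescence and defence, was at 7.11, 5.98 and 6.61 in SA and 7.06, 7.17 and 6.86 in silwet. Its difference of −0.46 was −0.10 without replicate 2 and −0.72 without replicate 1. The calmodulin-like gene CML38 (AT1G76650) had levels of 5.001, 5.031 and 5.604 in SA and 5.99, 5.85 and 5.90 in silwet, a difference of −0.70 with no overlap. STZ (AT1G27730), the zinc-finger repressor ZAT10, differed by −0.42 (−0.17 without replicate 2), and BIK1 (AT2G39660), a kinase of pattern-triggered immunity, by 0.11. AT4G12490, of the lipid transfer protein family, had levels of 7.79, 8.45 and 9.15 in SA and 7.97, 9.66 and 9.995 in silwet, a difference of −0.74 with overlap. AT3G13610, listed also as F6'H1 and needed to make the coumarin scopoletin, differed by −0.44, and CHI (AT2G43570), a chitinase, by −0.09.

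Conjugating and detoxifying enzymes stood near the median of all probe sets. Of 32 UDP-glycosyltransferases 19 were higher and 13 lower, with a median of 0.06. UGT84A3 (AT4G15490) had levels of 6.68, 6.62 and 6.37 in SA and 7.21, 7.08 and 6.87 in silwet, a difference of −0.50 with no overlap, and UGT73B5 (AT2G15480) differed by −0.39 with no overlap. Of 9 glutathione transferases 3 were higher and 6 lower. GSTU16 (AT1G59700) was lower on all SA arrays, at 6.67, 6.10 and 6.58 against 7.45, 7.005 and 6.82 in silwet, and GSTU20 (AT1G78370) differed by 0.28. Of 16 expansins and xyloglucan enzymes 7 were higher and 9 lower. The 2 at an unadjusted p under 0.05 were EXPA8 and XTH16 (AT3G23730, 0.51, and 0.31 without replicate 1), both higher. Over all probe sets tested, 3.82% were higher at that level. In the auxin list of 8 genes 0 had an unadjusted p under 0.05, and IAGLU (AT4G15550), which glucosylates auxin, differed by −0.37.

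GI (AT1G22770), of the circadian clock, was at 8.87, 8.64 and 7.81 in SA and 8.51, 7.41 and 8.21 in silwet, a difference of 0.40 that lay mostly in the replicate 2 pair. EIN3 (AT3G20770), the central transcription factor of ethylene signalling, differed by 0.10, the flavonoid genes DFR (AT5G42800) and UF3GT (AT5G54060) by 0.10 and 0.06, and the heat shock gene ATHSP22.0 (AT4G10250) by −0.10. The direction of these 5 and of CHI turned when 1 replicate was left out. Of 3 late embryogenesis abundant and dehydrin genes, AT2G46140, listed also as LEA27, had levels of 5.44, 5.33 and 5.51 in SA and 5.69, 5.90 and 6.01 in silwet, a difference of −0.44 with no overlap, and AT2G44060, listed also as LEA26, differed by −0.13. The chitinase ChiC (AT4G19810) differed by −0.19. In these lists 0 members were called by limma.

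**Figure D4:**
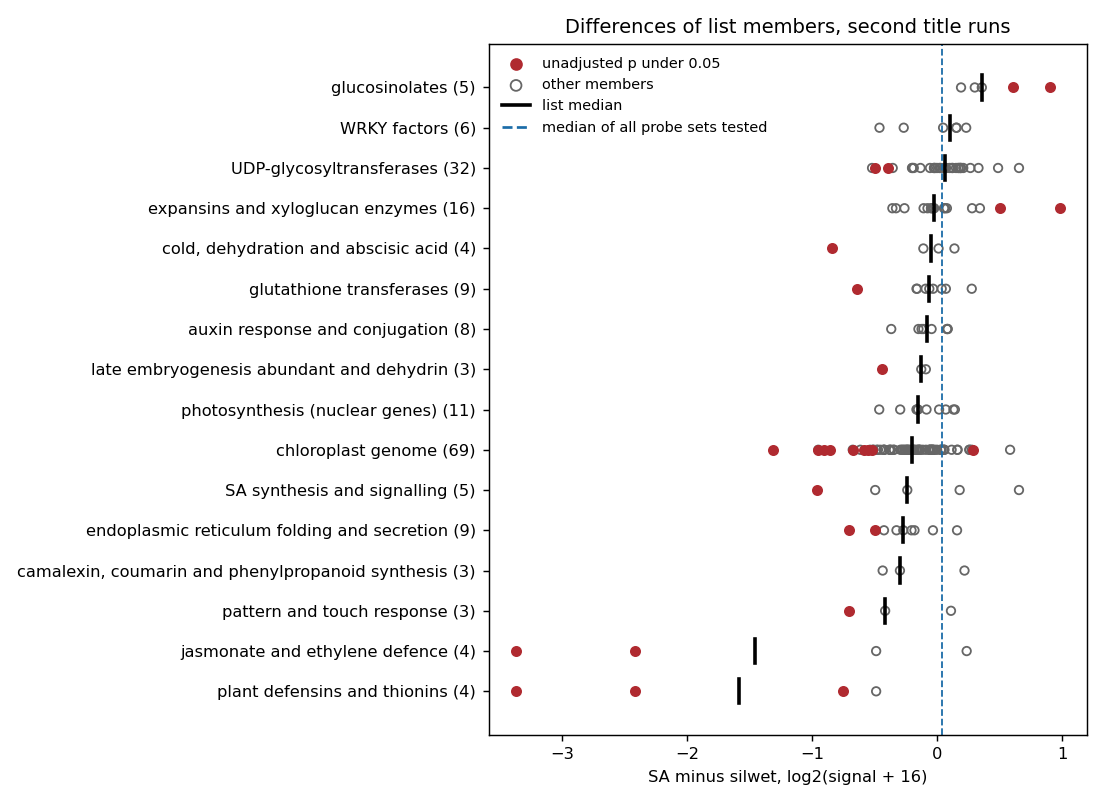
Differences, SA minus silwet in log2(signal + 16), of the tested members of each gene list with at least 3, with the number of members in brackets, filled points for an unadjusted p under 0.05, a black bar at the list median and a dashed line at 0.04, the median of all probe sets tested. The jasmonate and defensin lists reach −3.37 through PDF1.2, and the 5 glucosinolate genes lie between 0.19 and 0.90.

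With the spread estimated from the paired differences of all 18 arrays, 8 probe sets were called for the same 6 arrays (0.0469%), 3 higher (0.0176%) and 5 lower (0.0293%). Of these 5 have 1 gene name: AT5G62360 was called higher, and PDF1.2, PDF1.2b, AT5G03350 and AT5G55450 lower (adjusted p of 0.0459 to 0.0472 by limma). AT5G03350, a legume lectin-like gene known in Arabidopsis as SA-inducible, had levels of 10.57, 10.81 and 11.19 in SA and 11.18, 11.57 and 11.74 in silwet. The groups overlapped narrowly, SA 51 lying just above silwet 40, and the difference was −0.64 ± 0.09. AT5G55450, of the lipid transfer protein family, had levels of 10.54, 10.33 and 10.70 in SA and 11.002, 11.03 and 11.46 in silwet, a difference of −0.64 ± 0.10 with no overlap. These 2 genes were named after their values were seen.

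The second runs were then set against the other runs, with runs paired by title order, by testing the difference between the SA differences in limma over the 18 arrays. Against the first runs (SA 46 to 48 and silwet 37 to 39), 769 probe sets had a higher SA difference in the second runs (4.51%) and 669 a lower one (3.92%), together 8.43% of those tested. Of 60 named genes that entered this fit 35 were called. Those named for a large difference in the second runs carry that choice into the contrast. The listed genes were chosen with earlier results of these data known, so the count of calls is not an independent find. In 32 of the 35 the SA difference had opposite signs: 19 were lower in SA in the second runs and higher in the first, and 13 the reverse.

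UGT76B1 differed by 0.65 in the second runs and 2.73 in the first, a contrast of −2.07 ± 0.53 (adjusted p = 0.0278). AT5G52810 differed by −0.96 in the second runs and 1.41 in the first, a contrast of −2.38 ± 0.26 (adjusted p = 0.000636). AOP3 differed by 0.90 in the second runs and −1.77 in the first, a contrast of 2.67 ± 0.36 (adjusted p = 0.00148). The PDF1.2 contrast was −2.95 ± 0.69 (adjusted p = 0.0193), from −3.37 in the second runs and −0.42 in the first, both negative. PDF1.2 averaged 6.87 on the SA arrays of the second runs and 6.69 on those of the first, and 10.24 on the silwet arrays of the second runs and 7.11 on those of the first. Without replicate 2 the PDF1.2 contrast was −1.92 (adjusted p = 0.162), without replicate 1 −2.69 (adjusted p = 0.116), and the contrasts of UGT76B1 (without replicate 2 or 3) and AOP3 (without replicate 2) also lost their calls, while AT5G52810 kept its call without each replicate in turn.

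The genes called on the 6 arrays of the first runs, which share no array with the second, were also followed as groups. There 422 probe sets rose with SA (2.47%) and 424 fell (2.49%) by limma, together 4.96% of those tested. Of the 411 that rose in the first runs and were tested here, 369 were lower in SA in the second runs and 42 higher, with a median of −0.33 and pair medians of −0.34, −0.42 and −0.24. Of the 423 that fell in the first runs, 379 were higher in SA in the second runs and 44 lower, with a median of 0.33 and pair medians of 0.37, 0.33 and 0.20. Over all probe sets tested, 9739 were higher and 7320 lower. The shares at an unadjusted p under 0.05 were 31.9% and 27.9% in these groups and 6.65% in all, and 0 in either group was called in the second runs.

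Against the third runs (SA 52 to 54 and silwet 43 to 45), 0 contrasts were called by limma (0%), with 1934 at an unadjusted p under 0.05 (11.3%) and a smallest adjusted p of 0.388. PDF1.2 differed by −3.37 in the second runs and −0.09 in the third (adjusted p = 0.403), and was not called. It averaged 7.78 on the SA arrays of the third runs and 7.88 on the silwet arrays. Its highest mean in any run was thus that of the second silwet run, at 10.24, and the reason was not tested.

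**Figure D5:**
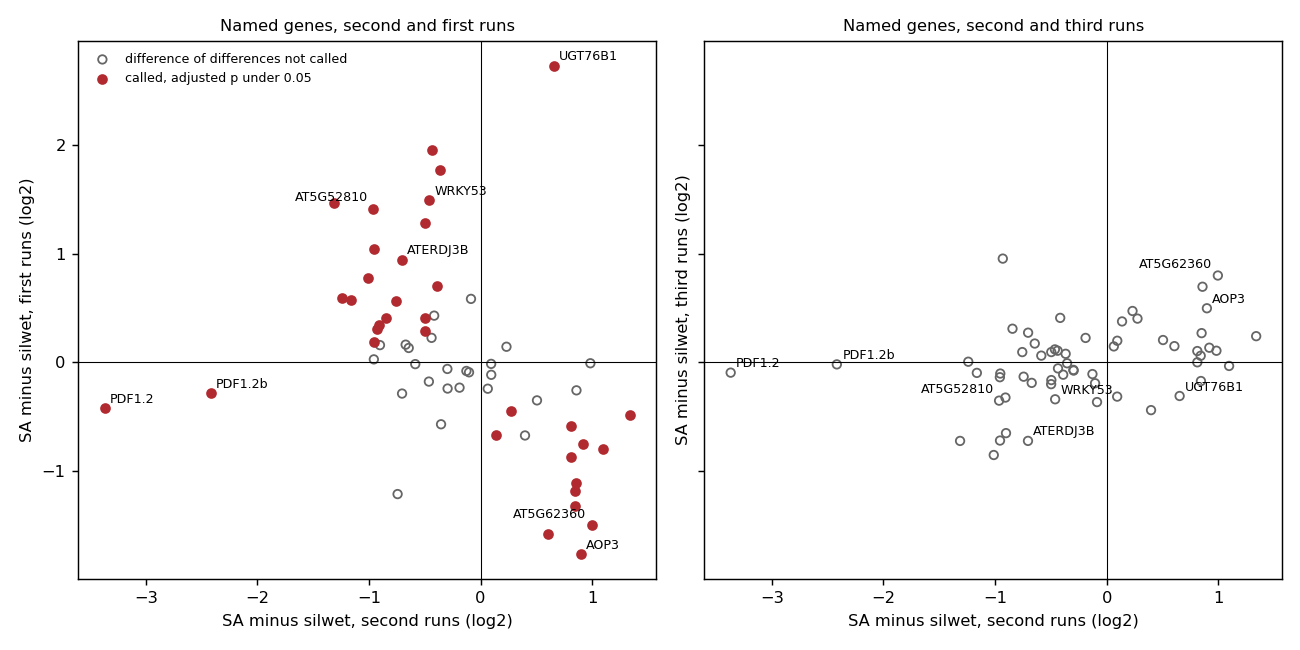
SA minus silwet difference (log2) of 60 named genes, 1 point per gene, in the second runs on the horizontal axis and in the first runs (left panel) or the third runs (right panel) on the vertical axis, filled where the difference between the runs was called. In the left panel 35 points are filled and 32 of them have opposite signs on the 2 axes, and in the right panel 0 are filled.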

How the data were processed

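RNA of accession Est was hybridised to Affymetrix ATH1 arrays, 1 array per sample. The deposited intensity values are linear signals, 1 per probe set, made by the authors with MAS5 (version not given) per the submitters' processing notes. Trimmed means leaving out 2% at each end were equal between arrays, so each array had been scaled to 1 level. No probe-level files or detection calls were used here, so background was not re-estimated, and array number limits the precision.

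The 64 control probe sets were left out, and probe sets under the 25th percentile of the mean over the 6 arrays were dropped, leaving 17059 of 22810. The annotation pairs 13513 probe sets with 1 gene and 503 with several, and leaves 8730 unnamed here. Of those tested, 9526 had 1 gene and 7184 were unnamed. Signals plus 16 were log2-transformed and tested with limma 3.58.1 in R 4.3.3 (lmFit, eBayes with trend, Benjamini-Hochberg, threshold 0.05), with replicate number as a block and 2 residual degrees of freedom. Contrasts between runs used all 18 arrays with run and replicate as pair block. The fit was tested on simulated data with independent noise, which held no shifts shared by an array or a replicate. No 2 arrays were identical.

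Named genes were, among probe sets with 1 gene, the 12 largest called differences in each direction, with places left filled from an unadjusted p under 0.05, the same sign in 3 pairs and a mean level of at least 7; up to 4 members of each list by p; and PR1, PR2, PR5, ICS1, UGT76B1, GRX480, PDF1.2 and PDF1.2b where measured by name. The members and lists were chosen with earlier results of these data known. Lists for TGA factors, antioxidant enzymes, aquaporins, GDSL lipases, ribosomal proteins, ethylene response factors, secreted peroxidases and the mitochondrial genome had 0 members named here. Alternatives were another offset, quantile normalization, other filters, no variance trend, no block, the spread of 18 arrays, a 2-fold limit and leaving out each replicate. Leaving out silwet 40 alone (with no block), and the runs' contrasts of single genes under these settings, were added after seeing the data. Figures were drawn with matplotlib 3.10.9.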

Additional observations from a re-analysis of the deposited data

Results flagged for a closer look

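All 35 values here are SA differences in the second runs minus those in the first runs, in log2. Each was called by limma over 18 arrays at an adjusted p under 0.05. Genes named for a large difference in the second runs carry that choice into the contrast, so their calls are not independent of it. The lists and their members were chosen with earlier results of these data known, so their calls are not independent finds either. The runs are paired by title order, and what separates them is not given in the labels.

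The contrast was positive, toward SA in the second runs, for AOP3 (2.67), AT5G62360 (2.50), AT2G31790 (2.19), AT1G67750 (2.17), AT5G45650 (2.03), AT1G55360 (1.96), AT2G28790 (1.89), AT1G62500 (1.82), iqd21 (1.69), AT2G34510 (1.67), AT1G04040 (1.403), COR15B (0.81) and GSTU20 (0.72). In all of these the SA difference was above 0 in the second runs and below 0 in the first.

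Negative contrasts were found for the defensins PDF1.2 (−2.95) and PDF1.2b (−2.13), for psbA (−2.78), and for genes whose SA difference was above 0 in the first runs. Among these were AT3G13610 (−2.39), AT5G52810 (−2.38), IAGLU (−2.14), UGT76B1 (−2.07), AT5G55420 (−1.996), WRKY53 (−1.95), AT1G19960 (−1.83), AT1G11330 (−1.79), GRX480 (−1.77), AT3G16530 (−1.73) and ATERDJ3B (−1.65). Smaller negative contrasts were those of THI2.2 (−1.32), LTI30 (−1.25), AT1G03400 (−1.25), SAG29 (−1.24), AT1G74440 (−1.14), UGT73B5 (−1.09), BZIP60 (−0.91) and UGT84A3 (−0.79).

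Of the 35, 31 lost the call under at least 1 alternative and 0 changed sign. The 4 that kept it throughout were AT5G62360, AT5G52810, AT5G55420 and ATERDJ3B. Leaving out replicate 2 removed 29 calls.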

How the results depend on the processing

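The count of 0 called higher and 0 lower held with no replicate block (smallest adjusted p 0.610), an offset of 1, no filter and no variance trend. A 2-fold limit can only remove calls, so it could not change this count. The count also held without silwet 40 alone (smallest adjusted p 0.580), which was fitted without the replicate block. It became 1 higher and 2 lower with an offset of 64, with quantile normalization and with the filter at the median, PDF1.2 and PDF1.2b being the 2 lower each time, and 3 higher and 5 lower with the spread of 18 arrays. Leaving out 1 replicate gave 0 to 21 higher and 2 to 39 lower. These were 9 and 11 without replicate 1, 21 and 39 without replicate 2, and 0 and 2 without replicate 3, and with 2 pairs left the p-values rest on a variance shared across probe sets. Quantile normalization turned the split at an unadjusted p under 0.05 to 554 higher and 623 lower, against 652 and 482.

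For second minus first runs, no replicate block gave 333 higher and 342 lower, no filter 459 and 439, and leaving out a replicate 28 to 420 higher and 44 to 357 lower, lowest without replicate 2. For the second minus the third runs it stayed at 0 under the alternatives run. Under the alternatives run, the SA minus silwet differences of the control ratios shifted by less than the SD of their 3 pairs.

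Same-numbered arrays did not all deviate together (correlation over probe sets 0.335, 0.000414 and −0.0907 for replicates 1, 2 and 3), so they share a number and are not shown to be pairs. The replicate block was used because the comparison's rule gives it, and without it 0 probe sets were called between SA and silwet as well, while 17 of 35 named second minus first contrasts lost their call.

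Leaving out 1 replicate turned 6 small differences across 0: EIN3 (−0.11 to 0.50), CHI (−0.22 to 0.0754), GI (−0.0199 to 0.80), DFR (−0.10 to 0.40), ATHSP22.0 (−0.21 to 0.0265) and UF3GT (−0.23 to 0.29). Without silwet 40 alone, fitted without the replicate block, AT2G44060 became 0.0595. The causes were not tested. With 3 arrays a group, a difference under the median half-width of 0.44 could not be told from 0 for most probe sets, even before adjustment.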
